A study of Mus musculus with 232 samples.

Results

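The 9 genes described here encode the drivers of the G1 phase and of entry into S phase: the D cyclins Ccnd1, Ccnd2 and Ccnd3, their kinases Cdk4 and Cdk6, the E cyclins Ccne1 and Ccne2, their kinase Cdk2, and the phosphatase Cdc25a. They were taken by gene ID as a fixed list, which was chosen with earlier results of these data known. They are 9 of 42493 genes in the deposited tables and 9 of the 11176 genes whose mean count over cells reached 5. The tables hold single mouse embryonic stem cells, captured on a Fluidigm C1 circuit and sequenced as full-length cDNA. The study asked how 1 miRNA at a time acts within and across cells that make almost no miRNAs of their own.

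All cells were grown with LIF and 2i, the MEK inhibitor PD0325901 and the GSK3 inhibitor CHIR99021, in medium with 15% fetal bovine serum. Mock cells were Dgcr8-/- and received transfection reagent without a mimic (60 cells). Dgcr8 is needed to process primary miRNA transcripts, and both mimic groups lack it too. The let-7 group was Dgcr8-/- with a let-7 mimic (48 cells named), and the miR-294 group was Dgcr8-/- with a miR-294 mimic (58 cells named). Wild-type (WT) cells were titled V6.5, the parental line, and received no mimic (16 cells). Cells were captured 24 h after transfection. The sources name the let-7 mimic differently: cell titles say let-7i, the series design says let-7b and the methods say let-7c. The groups model a state without other miRNAs rather than a normal stem cell, and the study kept let-7 and miR-294 cells only where known targets of the mimic were lower. Cdc25a is on the let-7 target list used for that choice, so its level in let-7 cells was partly a criterion. Ccnd1 is on the list of predicted miR-294 targets that the study drew from these same cells.

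Each condition is 1 culture as far as the labels say, and 1 circuit, so cells of a condition are not replicates of it. No test was run, and a gene is described as past the fold where its means differ at least 2-fold. Ranges over cells describe the cells only, and condition and circuit cannot be told apart.

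In the usual order of events, mitogen signals raise the D cyclins, which bind Cdk4 and Cdk6 and start to phosphorylate the pocket protein Rb. This frees E2F factors, which switch on the E cyclins, and cyclin E with Cdk2 completes the phosphorylation and starts replication. Cdc25a removes inhibitory phosphates from Cdk2. Embryonic stem cells are known for a short G1 phase, for cyclin E and Cdc25a at high levels and for low D cyclins. The miR-294 family promotes this cycle in stem cells, whereas let-7 miRNAs are made as cells differentiate.

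A miRNA finds its targets mainly through its seed, bases 2 to 8 from the 5′ end. The mature sequences of miR-294 and of each let-7 named by the sources follow, from RefSeq on GRCm38.p6, with the seed in capitals. All these let-7 miRNAs share 1 seed, so the seed matches below do not depend on which was used.
let-7c-5p: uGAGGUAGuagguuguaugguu
let-7b-5p: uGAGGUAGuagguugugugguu
let-7i-5p: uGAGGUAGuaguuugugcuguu
miR-294-3p: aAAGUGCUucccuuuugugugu
The let-7c gene on chromosome 16 gives the mature miRNA at chr16:77599672-77599693 on the plus strand, and miR-294 lies at chr7:3220691-3220712 on the plus strand.

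The 3′ UTR of 2 of the 9 genes held the complement of the let-7 seed, and that of 4 of the 9 held the complement of the miR-294 seed. The matches are shown with 10 bases on each side, 5′ to 3′, with the seed match in capitals, since these are the only places where the mimics' full seeds pair with these UTRs in the Gencode M21 transcripts (1 per gene, the longest coding sequence).
Cdc25a, let-7, bases 528 to 534 of the UTR: atcctaggagCTACCTCtacttttaat
Cdk4, let-7, bases 652 to 658: ggcccgaggcCTACCTCccctcatcca
Ccnd1, miR-294, bases 924 to 930: tccatttcaaAGCACTTttggtcagct
Ccnd2, miR-294, bases 988 to 994: ccattagaaaAGCACTTtgaaaatttt
Cdk6, miR-294, bases 1061 to 1067: ctcaaccaccAGCACTTctaattcatt
Cdk6, miR-294, bases 4540 to 4546: ccgcacattcAGCACTTatggactagg
Cdk6, miR-294, bases 7642 to 7648: taatagaaagAGCACTTagcagatggg
Cdk4, miR-294, bases 541 to 547: atgcttgccgAGCACTTgtgaggccct
Cdk4, miR-294, bases 824 to 830: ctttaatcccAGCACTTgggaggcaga
Of the 10140 genes past the filter with an annotated 3′ UTR, 9.44% held a let-7 seed match and 16.1% a miR-294 seed match. A weaker form, bases 2 to 7 followed by an A, occurred for let-7 once in Ccnd1, 3 times in Ccnd2 and once in Cdk6. For miR-294 it occurred once, in Cdk2. Cdk6 has by far the longest of these UTRs, 10217 bases against 531 to 5173 in the other genes. Ccnd3, Ccne1 and Ccne2 held neither seed nor the weaker form for either miRNA. These are matches of letters and were not tested as sites.

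The genes lie apart in the genome (GRCm38): Ccnd1 at chr7:144929931-144939925 and Ccne1 at chr7:38097984-38107534 on the minus strand, Ccnd2 at chr6:127125162-127152193 (minus), Ccnd3 at chr17:47505051-47599691 (plus), Cdk4 at chr10:127063534-127067920 (plus), Cdk2 at chr10:128697939-128705031 (minus), Cdk6 at chr5:3341485-3531008 (plus), Ccne2 at chr4:11191351-11204779 (plus) and Cdc25a at chr9:109875579-109893895 (plus). The library kit keeps no strand. Exons of an opposite-strand gene overlap 23.4% of the exonic bases of Ccnd1 (LTO1), 19.7% of Cdk4 (Tspan31) and 17.4% of Ccne2 (Ints8), and at most 4.11% for any single neighbour of the other genes. Reads in those stretches cannot be assigned to 1 gene. At most 4.32% of the 31-base words of any of the 9 genes recur in another gene's transcripts, the highest being Ccnd3, which has a pseudogene copy.

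Several cells needed care before the results. Counts of 4 pairs of cells, 3 pairs in let-7 and 1 in miR-294, differed by no more than 2 runs of 1 cell do (chi-square per gene 1.90 to 5.90, against 39.8 for the next closest of 16471 pairs). Each pair was counted as 1 cell, which left 45 let-7 and 57 miR-294 cells. In 1 WT and 1 let-7 cell the 2 runs differed as much as unrelated cells do (chi-square per gene 201 and 111). Without these 2, none of the 9 genes described here moved across the fold. The genotype label also puts 3 cells with a different title prefix in the miR-294 group. Leaving them out moved none of the 9 genes across the fold. Total counts per cell were 513521 to 3979274. All 8 stem cell markers were counted in each condition, but their summed level was lower in let-7 cells (median 2347, range 495 to 9996) than in mock cells (median 5822), and Nanog and Sall4 were past 2-fold lower there. Among the stem cell markers, Pou5f1 was past 2-fold higher in mock than in WT cells. The summed markers of feeder fibroblasts had a median of 0 in every condition, with Col1a2, Col3a1 and Lum at 0 throughout. Their highest sum in a cell was 350 with let-7, 8.28 in mock, 32.4 with miR-294 and 1.95 in WT. The summed markers of endoderm also had a median of 0, with Sox17 and Gata6 at 0 throughout. At most 6 cells of a condition held any endoderm count. The endoderm marker Gata4 was past 2-fold higher with let-7 (log2 1.99), counted in 6 of 45 let-7 cells (mean 10.9, highest 459) and 1 of 60 mock cells (mean 2.76), and in none of 16 WT cells. The part of these marker differences in the results below was not tested. Summed neural markers had a median of 0 in every condition, mesoderm markers 0 in the Dgcr8-/- conditions and 55.3 in WT, and trophoblast markers 3.38 to 8.96. Dgcr8 itself averaged 118 normalized counts in WT, 51.5 in mock, 41.2 in let-7 and 67.6 in miR-294 cells. The count is for the whole gene, so transcript left from the deleted allele is included and the genotype is only weakly checked.

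Counts are given below as normalized counts, that is counts divided by the size factor of the cell. On that scale 2 of the 9 genes were past 2-fold higher with let-7 (Ccnd2 and Cdk6) and 1 was lower (Cdc25a). Of all genes, 18.5% were past the fold higher and 9.21% lower in that comparison. With miR-294, 2 of the 9 were lower (Ccnd1 and Ccnd2) and none was higher, against 20.6% and 5.74% of all genes. In mock against WT cells 4 of the 9 were higher (Ccnd1, Ccnd2, Cdk2 and Cdk6) and none was lower, against 31.9% and 9.32% of all genes. With so few members, these counts stood near those of all genes, and the results below rest on the single genes. The scaling matters here: the median log2 fold over all genes was 0.17 with let-7, -0.28 with miR-294 and 0.37 for mock over WT. After subtracting it, Cdk6 with let-7, Ccnd1 with miR-294 and Cdk2 in mock over WT were within 2-fold and Ccne1 was past 2-fold lower in mock than WT. The shares of all genes past the fold then became 14.9% higher and 12% lower with let-7, 9.09% and 14.7% with miR-294, and 25% and 16.3% for mock over WT. Both mimic comparisons and that of mock with WT share the mock cells.

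**Figure D1:**
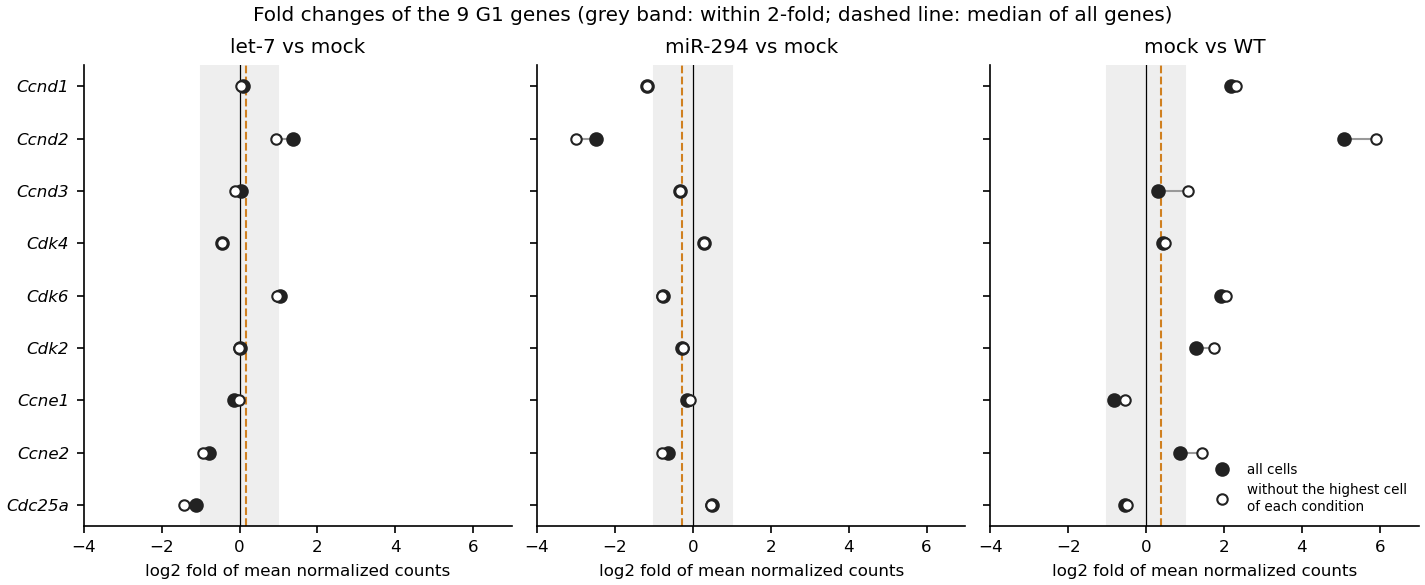
Log2 fold of the mean normalized count (x axis) of each of the 9 genes (y axis) with let-7 against mock, with miR-294 against mock, and in mock against WT cells. Filled points use all cells, open points leave out the highest cell of each condition, the grey band marks folds under 2 and the dashed line is the median of all genes (0.17, -0.28 and 0.37). Ccnd2 moves between filled and open points (1.37 to 0.93 with let-7), while Ccnd1 and Cdk4 hardly move.

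Ccnd1, the most abundant D cyclin transcript of the Dgcr8-/- cells, was low in WT cells. It ranged over cells from 0 through a median of 386 to 1304 in mock, from 0 through 324 to 1735 with let-7, from 0 through 192 to 600 with miR-294, and from 0 through 89.6 to 283 in WT. The highest miR-294 cell lay below the upper quartile of mock cells (730), and the highest WT cell lay below the mock median. Means were 482 ± 347 in mock (SD over 60 cells), 509 ± 476 with let-7, 213 ± 161 with miR-294 and 106 ± 91 in WT. Mock was 4.56-fold above WT and 2.26-fold above miR-294, while let-7 and mock differed 1.06-fold. A mock cell exceeded a WT cell in 86.7% of all such pairs of cells. The fold with miR-294 was just under 2 with library totals (log2 -0.97) and with FPKM (-0.95).

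Ccnd2 was carried by few cells. It was counted in 26 of 60 mock cells, 25 of 45 let-7 cells, 9 of 57 miR-294 cells and 3 of 16 WT cells. The exact 95% intervals of these shares were 30.6 to 56.8%, 40 to 70.4%, 7.48 to 27.9% and 4.05 to 45.6%, for counting error only. The highest cell held 944 in mock, 2876 with let-7, 261 with miR-294 and 15.2 in WT, and medians were 0, 5.48, 0 and 0. That cell alone gave 31.3%, 49.3%, 51.4% and 63.5% of its condition's sum. Mean levels were 50.3, 130, 8.91 and 1.5, so let-7 stood 2.58-fold above mock, miR-294 5.65-fold below it and WT 33.6-fold below it. Without the highest cells, let-7 over mock was 0.93 on the log2 scale, within 2-fold, and the other comparisons stayed past it. The WT sum was only 27 counts, with an exact Poisson interval of 18 to 39.

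Ccnd3 stood at a similar level in all conditions, with medians of 72.8 in mock, 67.3 with let-7, 68.1 with miR-294 and 39.5 in WT. It was counted in 93 to 100% of the cells of each condition. The means were 125, 129, 98.8 and 101, all within 2-fold. In WT, 1 cell at 787 gave 48.6% of the sum, and without the highest cells mock over WT was 1.08 on the log2 scale.

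The make-up of the D cyclins differed accordingly. Per length of transcript (FPKM), Ccnd1 made up 64.1% of the summed D cyclin mean in mock, 61.7% with let-7, 51.3% with miR-294 and 37.9% in WT. Ccnd3 made up 31.8%, 29.2%, 47.3% and 61.8%. The WT value leans on the 1 high Ccnd3 cell: the median share per WT cell was 46.2% for Ccnd3 and 53.8% for Ccnd1, against 23.2% and 71.6% in mock. Ccnd1 was the highest D cyclin in 45 of 60 mock cells, 29 of 45 let-7 cells, 33 of 57 miR-294 cells and 8 of 16 WT cells. Ccnd2 was the highest in 2 mock and 4 let-7 cells. The summed D cyclin FPKM averaged 139 in mock, 145 with let-7, 89.8 with miR-294 and 60.2 in WT.

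**Figure D2:**
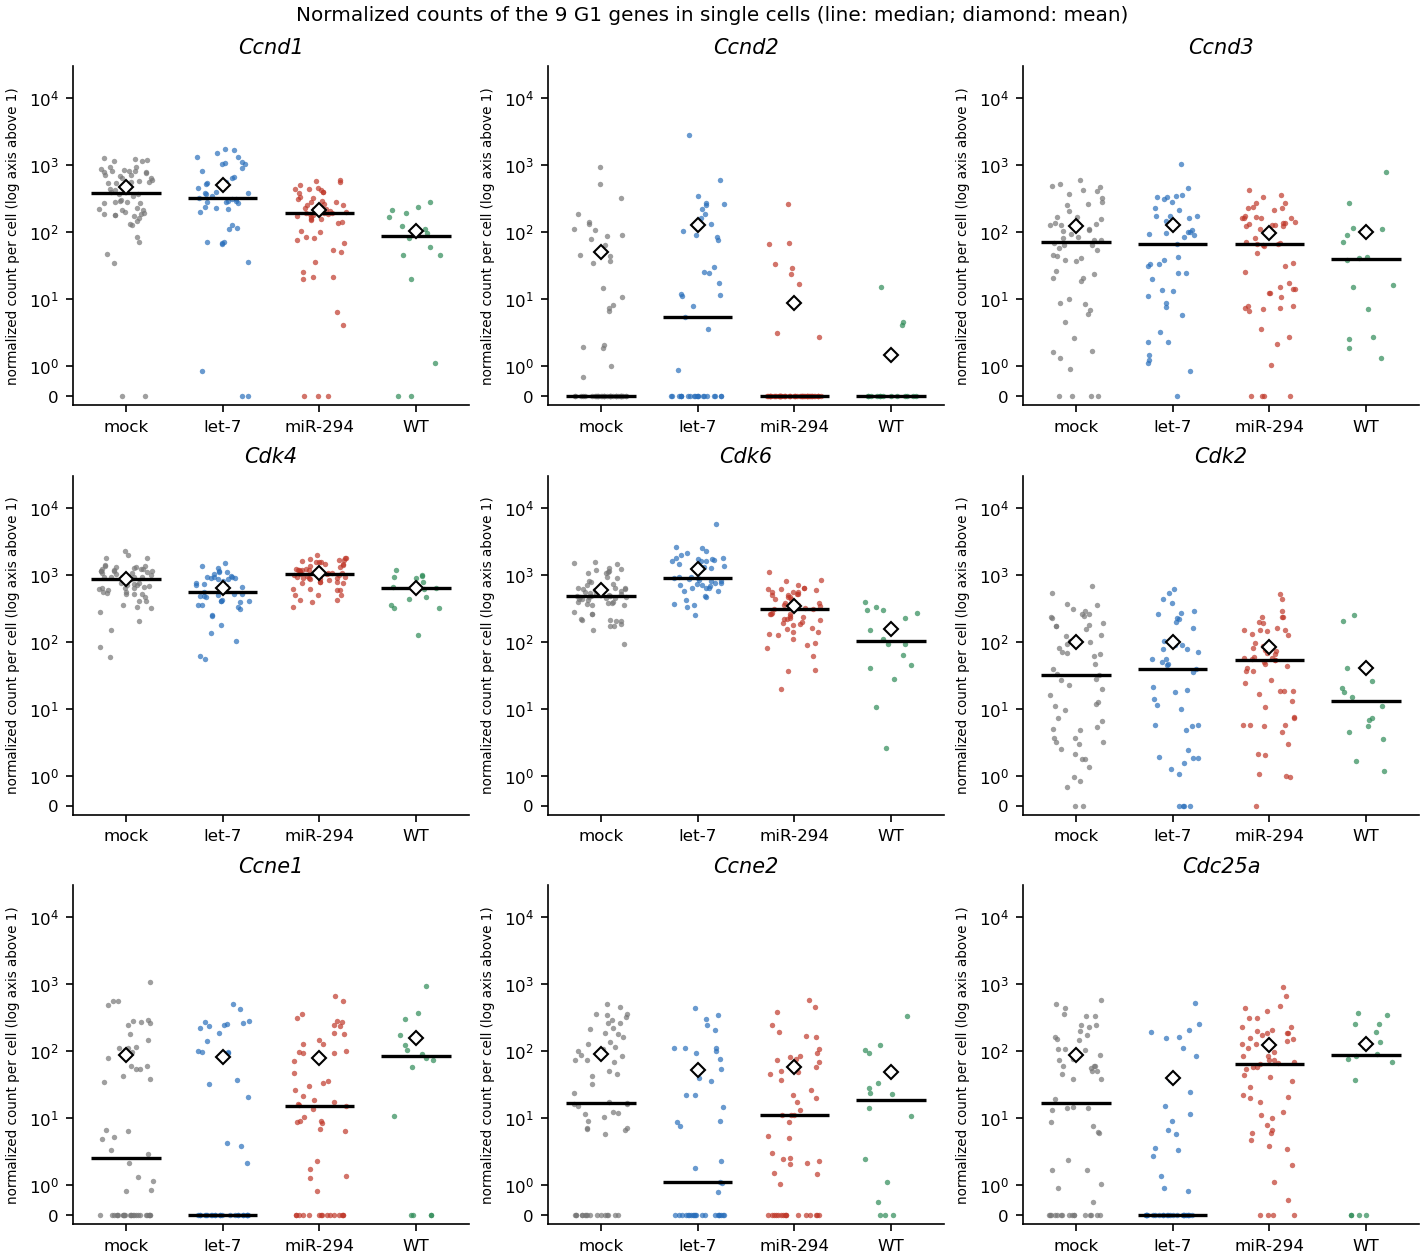
Normalized count per cell (y axis, log above 1) of each of the 9 genes in mock (60 cells), let-7 (45), miR-294 (57) and WT (16) cells, with each point a cell, the line the median and the diamond the mean. Cdk4 and Cdk6 form compact clouds above 0 in every condition. Ccnd2 and the E cyclins have many cells at 0 and a mean far above the median.

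Cdk4, the partner of the D cyclins in most tissues, was the most abundant of the 9 transcripts per length in every condition, with mean FPKM of 434 in mock, 310 with let-7, 565 with miR-294 and 375 in WT. It was counted in every cell. Its normalized count ranged from 58.4 through a median of 851 to 2235 in mock, from 55.2 through 553 to 1516 with let-7, from 336 through 1012 to 1997 with miR-294 and from 126 through 642 to 1190 in WT. The clouds overlapped in all conditions, and only miR-294 had no cell under 300. The mean log2 fold was -0.45 with let-7 and 0.28 with miR-294, both within 2-fold and both of the same sign under every alternative run. A let-7 cell exceeded a mock cell in 34.6% of pairs and a miR-294 cell did so in 62.2%.

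Cdk6, the second kinase of the D cyclins, was ordered the other way among the 3 Dgcr8-/- conditions, and both kinases had a lower median in WT than in mock. It ranged from 93.6 through a median of 489 to 1555 in mock, from 250 through 899 to 5703 with let-7, from 20.1 through 308 to 1091 with miR-294, and from 2.58 through 102.7 to 393 in WT. No let-7 cell was below 250, and no WT cell reached the mock median. Means were 586 ± 356 in mock (SD over 60 cells), 1209 ± 920 with let-7, 345 ± 227 with miR-294 and 154 ± 130 in WT. Let-7 stood 2.06-fold above mock, mock 1.70-fold above miR-294 and 3.8-fold above WT. A let-7 cell exceeded a mock cell in 78.2% of pairs, a miR-294 cell in 28.7%. The let-7 fold sat at the threshold: its log2 value of 1.05 was 0.94 with library totals, 0.92 with TMM factors, 0.94 with FPKM and 0.88 for medians. The highest let-7 cell was 1 of the near-identical pairs, and without all those cells the log2 fold was 0.91. Summed Cdk6 counts were 55830 with let-7 (exact Poisson interval 55368 to 56295, counting error only) and 40190 in mock (39798 to 40585).

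Set against each other within a cell, the kinases need no scaling between cells. The ratio of Cdk6 to Cdk4 counts had a median of 0.656 in mock (range 0.102 to 10.1), 1.73 with let-7 (0.286 to 36.9), 0.312 with miR-294 (0.0101 to 1.14) and 0.195 in WT (0.00335 to 0.951). Cdk6 outnumbered Cdk4 in 20 of 60 mock cells, 30 of 45 let-7 cells, 3 of 57 miR-294 cells and 0 of 16 WT cells. These are 33.3% (exact interval 21.7 to 46.7%), 66.7% (51 to 80%), 5.26% (1.10 to 14.6%) and 0% (at most 20.6%), counting error only. The mean log2 ratio was 1.504 higher with let-7 than in mock, 1.31 lower with miR-294 (log2 -1.31) and 2.14 higher in mock than in WT. Without the near-identical cells the let-7 difference was 1.41, and without the cells whose runs disagreed the mock to WT difference was 2.03. Per length, Cdk6 made up 19.8% of the summed Cdk4 and Cdk6 mean FPKM in mock, 39.9% with let-7, 11.4% with miR-294 and 8.22% in WT. Cdk4 was thus the more abundant kinase per length in each condition. Both Cdk4 and Cdk6 hold miR-294 seed matches, and only Cdk4 of the pair holds a full let-7 match.

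**Figure D3:**
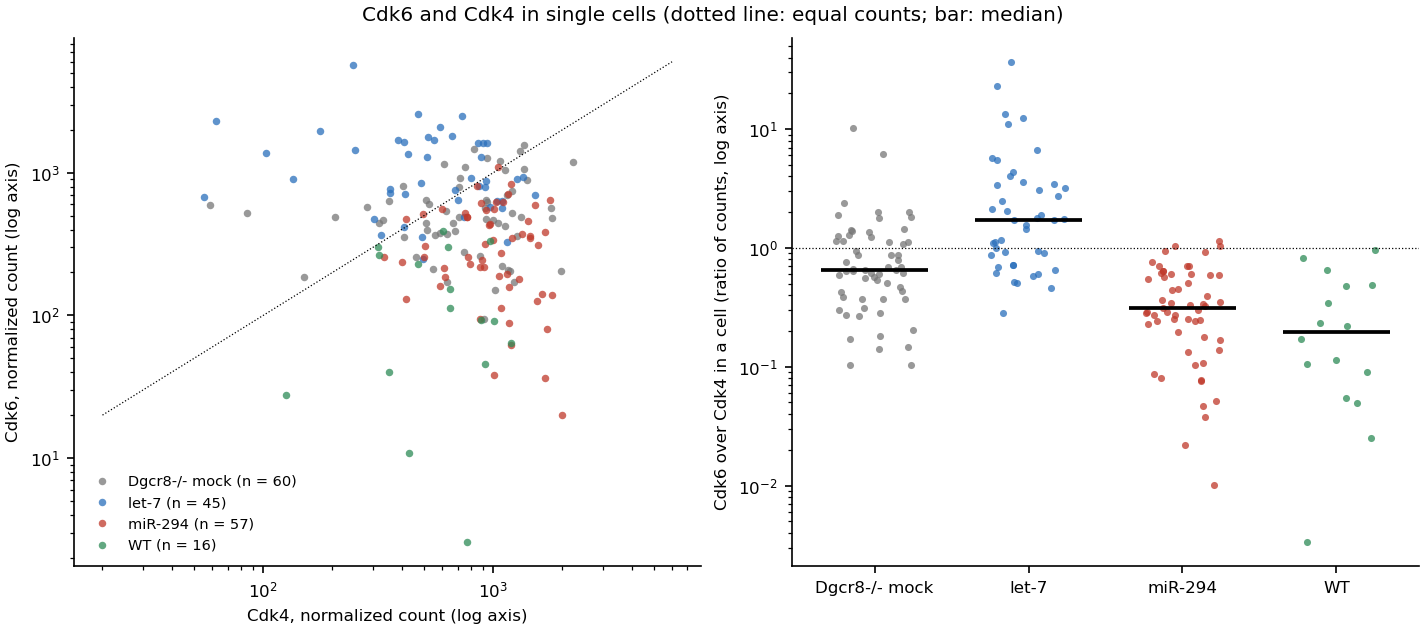
Left: normalized count of Cdk6 (y axis, log) against Cdk4 (x axis, log) with 1 point per cell and the dotted line at equal counts. Right: ratio of the counts per cell (y axis, log) by condition with the median as a bar (0.656 in mock, 1.73 with let-7, 0.312 with miR-294 and 0.195 in WT). Let-7 cells sit mostly above the line of equal counts and all WT cells below it.

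Cdk2, the partner of the E cyclins, was seen in nearly every cell at a low level. Medians were 32.4 in mock, 39.8 with let-7, 54.1 with miR-294 and 13.2 in WT, and the highest cells reached 683, 613, 512 and 256. The mean was 100 in mock, 101 with let-7, 83.3 with miR-294 and 41.3 in WT. Mock was 2.43-fold above WT, but 38.7% of the WT sum came from 1 cell, and the log2 fold of 1.28 was 0.98 when counts were summed over cells.

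Ccne1 was counted in part of the cells of each condition, 35 of 60 in mock, 22 of 45 with let-7, 42 of 57 with miR-294 and 12 of 16 in WT. The median was 2.53 in mock, 0 with let-7, 15.4 with miR-294 and 85.1 in WT, and the highest cells were at 1071, 510, 664 and 955. In all 3 Dgcr8-/- conditions the middle of the cells was thus far below WT, while the ranges overlapped from 0 to over 500. Means of 89.2, 81.3 and 79.8 in mock, let-7 and miR-294 cells were within 1.12-fold, and the WT mean was 158. The log2 fold of mock over WT was -0.82, within 2-fold, and past it with library totals (-1.08), TMM factors (-1.05), FPKM (-1.02) and summed counts (-1.22).

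Ccne2 had medians of 17.2 in mock, 1.12 with let-7, 11.1 with miR-294 and 18.6 in WT. It was counted in 44 of 60, 25 of 45, 41 of 57 and 13 of 16 cells. Means were 91.5, 53, 58.4 and 50, so mock was the highest and the log2 fold was -0.79 with let-7, -0.65 with miR-294 and 0.87 for mock over WT, all within 2-fold. Without the highest cells mock over WT was 1.44, since 41.7% of the WT sum was 1 cell. By the median over cells, let-7 over mock was -3.94.

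Taking the E cyclins as a pair, neither was counted in 14 of 45 let-7 cells, or 31.1% (exact interval 18.2 to 46.6%). That was so in 9 of 60 mock cells (15%, 7.10 to 26.6%), 6 of 57 miR-294 cells (10.5%, 3.96 to 21.5%) and 2 of 16 WT cells (12.5%, 1.55 to 38.3%). Intervals of let-7 and mock overlap. Both E cyclins were counted in 28 mock, 16 let-7, 32 miR-294 and 11 WT cells. Ccne1 supplied 80.7% of the summed E cyclin mean FPKM in WT, and 55.7% in mock, 66.1% with let-7 and 62.2% with miR-294.

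Cdc25a set the mimics apart in how many cells held it. It was counted in 21 of 45 let-7 cells (46.7%, exact interval 31.7 to 62.1%), 44 of 60 mock cells (73.3%, 60.3 to 83.9%), 53 of 57 miR-294 cells (93%, 83 to 98.1%) and 12 of 16 WT cells (75%, 47.6 to 92.7%). Thinned to 500000 counts in every cell, the shares were 40%, 68.3%, 87.7% and 75%, in the same order among the Dgcr8-/- conditions. Its median was 0 with let-7, 17.1 in mock, 65.4 with miR-294 and 87.2 in WT, and the highest cells held 534, 577, 913 and 376. Means were 40.7 ± 98.7 with let-7 (SD over 45 cells), 87.8 ± 136 in mock, 124 ± 174 with miR-294 and 127 ± 124 in WT. Let-7 was 2.16-fold below mock, and under the alternatives the log2 fold ran from -1.43 to -1.02. The log2 fold with miR-294 was 0.50, and mock was 1.45-fold below WT. The lower share in let-7 cells is not independent of how those cells were kept, as described above. Over all genes, those with a let-7 seed match had a median log2 fold of -0.09 with let-7 and those without had 0.19. Their median UTR lengths differed too, at 2293 and 897 bases, and the part of length was not tested. The corresponding medians with miR-294 were -0.51 with a match and -0.23 without. The study kept cells of both mimics only where known seed-matched targets were lower, so these medians are not independent of that choice. Beside these medians, Cdk4 and Cdc25a, the members with a let-7 match, had -0.45 and -1.11 with let-7. The 4 members with a miR-294 match, Ccnd1, Ccnd2, Cdk6 and Cdk4, had -1.17, -2.50, -0.76 and 0.28 with miR-294.

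**Figure D4:**
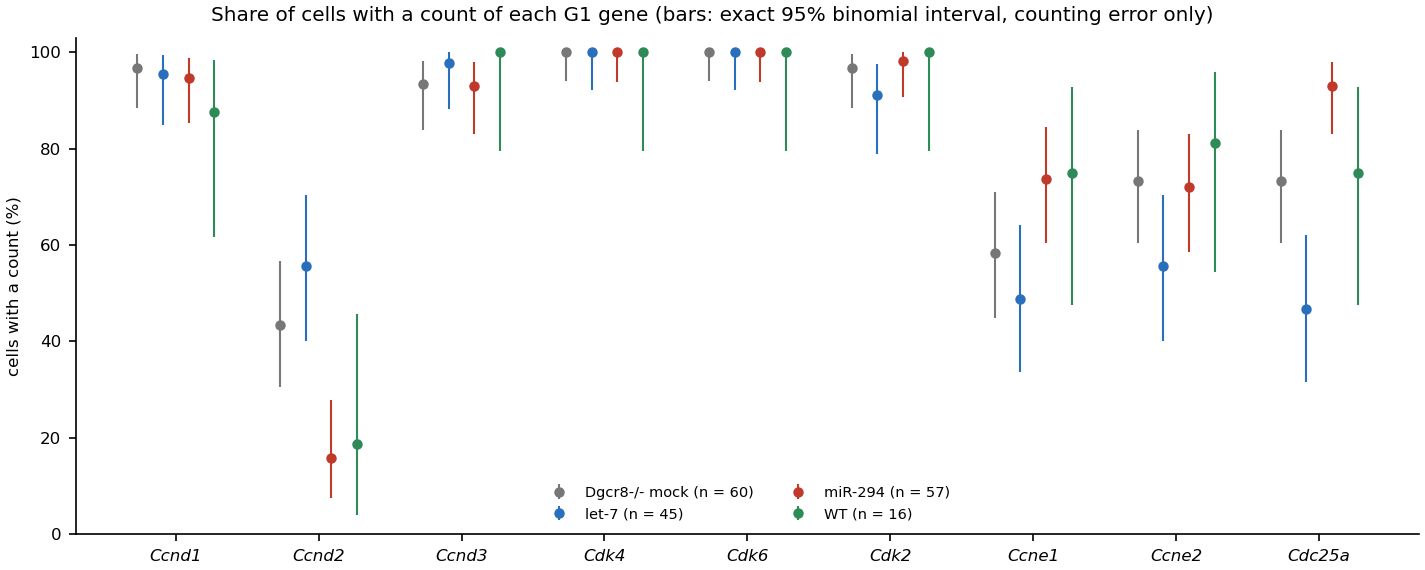
Percent of cells with a count (y axis) for each of the 9 genes in the 4 conditions, with bars for the exact 95% binomial interval (counting error only). Cdk4 and Cdk6 were counted in every cell, Ccnd2 in 15.8 to 55.6% of cells, and Cdc25a in 46.7% of let-7 and 93% of miR-294 cells.

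The partners and brakes of these genes were counted as lists. Beside the list counts here and below, 18.5% of all genes were past 2-fold higher and 9.21% lower with let-7. The shares were 5.74% and 20.6% with miR-294, and 31.9% and 9.32% for mock over WT. Without the highest cell of each condition they were 18.1% and 11.5%, 6.67% and 20.6%, and 40.2% and 6%, in the same order. Among the CDK inhibitors, 5 of 7 passed the filter (not Cdkn2a and Cdkn2c). With miR-294, 3 of the 5 were past 2-fold lower: Cdkn1a, a p53-induced inhibitor of Cdk2, averaged 59 against 314 in mock (log2 -2.41), Cdkn2b 1.38 against 21.9, and Cdkn1c 1.61 against 20.5. The same 3 were higher in mock than in WT, where Cdkn2b had no count, and both comparisons use the same mock cells. With let-7 only Cdkn1c was lower (4.01). The Cdkn1c calls rest on 1 cell: it was counted in 4 of 60 mock cells, 9 of 45 let-7 cells, 4 of 57 miR-294 cells and 3 of 16 WT cells, and 1 mock cell at 1194 gave 97% of the mock sum. Without the highest cell of each condition mock averaged 0.619, and all 3 directions turned (log2 2.08 with let-7, 0.76 with miR-294 and -2.44 for mock over WT). For Cdkn2b, 1 mock cell gave 77.9% of the sum, and without the highest cells the log2 fold was -2.94 with miR-294 and 1.09 with let-7, where all cells gave -0.41. Cdkn1a kept its folds (log2 -2.39 with miR-294 and 2.28 for mock over WT). It is on the study's list of high-confidence miR-294 targets. That list kept only genes lower than in Dgcr8-/- cells both in these miR-294 cells and in WT. Neither Cdkn1a fold is therefore independent of that list. The median log2 of the 5 with miR-294 was -2.41 with all cells and -0.74 without the highest, against -0.28 over all genes. Pocket proteins, the substrates that the cyclin kinases inactivate, were all 3 higher in mock than WT: Rbl2 averaged 63.7 against 0.104, Rb1 25.6 against 0.294 and Rbl1 45.2 against 22, with Rbl2 and Rb1 counted in only 1 WT cell each. With miR-294, Rbl2 (5.39) and Rb1 (12.2) were lower, and with let-7 Rbl2 was (26.7).

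Of the 10 E2F and DP factors, 3 were lower with let-7 (E2f2, E2f6 and E2f8) and 2 with miR-294 (E2f2 and E2f7), and none was higher with either. Without the highest cells, 5 were lower with let-7, E2f1 and E2f7 in addition, against 11.5% of all genes. For mock over WT, 4 were higher and 1 lower, against 31.9% and 9.32% of all genes. E2f1, the activating partner of Rb, averaged 26.3 in mock and 1.11 in WT, and E2f8, an atypical E2F that acts as a repressor, 18 and 76.2. Of 12 tested genes of CDK activation and cyclin turnover, Skp2, the ubiquitin ligase subunit that removes Cdkn1b, averaged 52.7 with let-7 against 162 in mock (log2 -1.61). Wee1, the kinase that opposes Cdc25 phosphatases, averaged 36.2 against 11 (log2 1.71). Those were the only 2 past 2-fold with let-7, and with miR-294 only Cdc25b was, at 20.9 against 52 (log2 -1.31). For mock over WT, Cdc25b was higher and Wee1 and Cdc25c lower, but 1 WT cell gave 53.9% of the WT Wee1 sum, and without the highest cells its log2 fold was -0.14. Without the highest cells Cdc25b was also past 2-fold higher with let-7 (log2 1.05).

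Downstream, a few genes of S phase entry were past 2-fold lower with let-7. Of 9 G1/S genes from the study's cell cycle list other than the members, 2 were past 2-fold lower, the origin-licensing factors Cdc6 (57.5 against 203 in mock, log2 -1.82) and Mcm2 (188 against 411, log2 -1.12), and 8 of 9 had a log2 fold below 0, against 41% of all genes. Of 6 S phase genes, the ribonucleotide reductase subunit Rrm2 was past 2-fold lower (162 against 770, log2 -2.25) and all 6 had a log2 fold below 0, with a median of -0.72 against 0.17 over all genes. Among 5 later cyclins and Cdk1, Ccnf was lower (73.4 against 286, log2 -1.96) with let-7, and Ccnb1 was lower in mock than WT (515 against 1167). Rrm2 and Ccnf are on the study's list of let-7c targets, which it drew from genes lower in these same cells. Their lower levels with let-7 are therefore not independent of that list. Among the 7 genes of G2 and mitosis, Birc5 was lower with let-7 (69.3 against 158), Cenpa was higher with miR-294 (82.3 against 24.0), and Cenpf and Cenpa were lower in mock than WT. Without the highest cells, E2f1, Brca2 and Ccna2 were past 2-fold lower with let-7 as well, and Bub1 higher in mock than WT. With miR-294 no gene of the G1/S, S phase and later cyclin lists was past 2-fold, with or without those cells.

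Across the cells of a condition most pairs of the 9 genes were weakly correlated. Over their 36 pairs, the median Spearman correlation was 0.07 in mock (range -0.23 to 0.30), 0.05 with let-7 (-0.22 to 0.48) and -0.01 with miR-294 (-0.31 to 0.34). In WT, with 16 cells, it was 0.03 over a wider range (-0.46 to 0.50), and 7 of the 36 pairs were above 0.3, against 1, 3 and 1 in mock, let-7 and miR-294 cells. Cells of a condition share a culture, a circuit and the depth scaling, and many values are 0. The E cyclins correlated with each other in the 3 Dgcr8-/- conditions, at 0.26 in mock, 0.48 with let-7 and 0.34 with miR-294, and at 0.09 in WT. Between Cdk4 and Cdk6 it was 0.15 in mock, -0.22 with let-7 and -0.14 with miR-294.

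**Figure D5:**
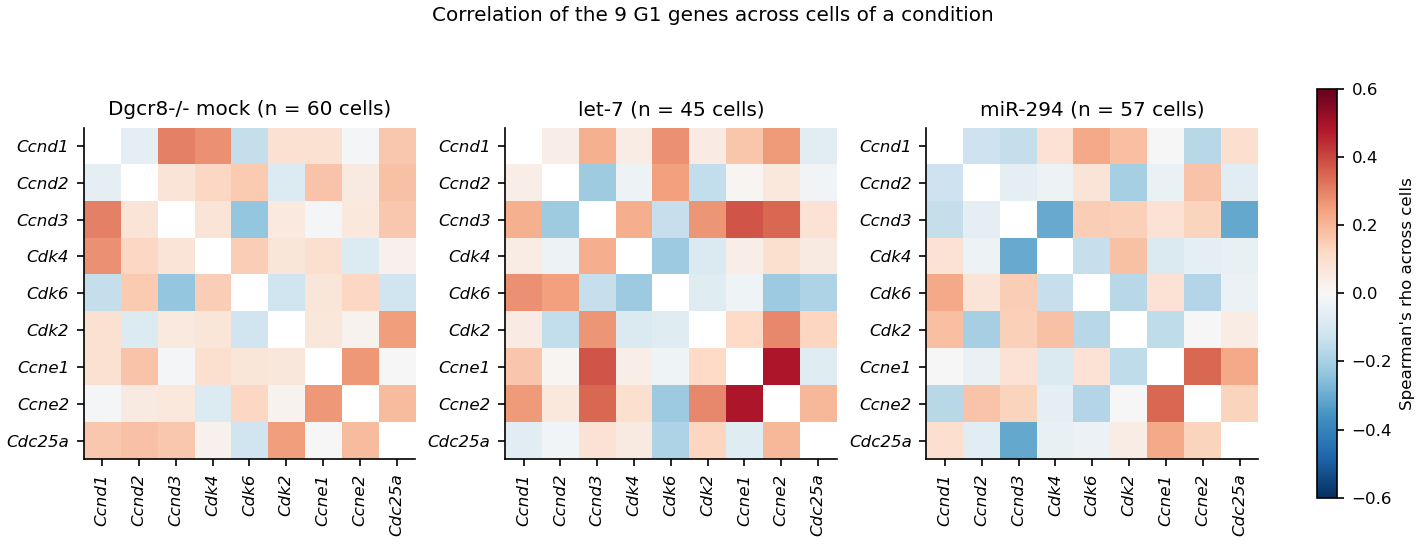
Spearman's rho of each pair of the 9 genes across mock (60), let-7 (45) and miR-294 (57) cells, red for positive and blue for negative. Most squares are pale, and the pair of E cyclins is among the darkest with let-7 at 0.48.

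Of the 9 genes, Ccne2 had the highest correlation with the summed level of the other G1/S genes in each Dgcr8-/- condition. This correlation was 0.35 in mock (60 cells), 0.49 with let-7 (45 cells) and 0.48 with miR-294 (57 cells), and that with the summed S phase genes was 0.35, 0.45 and 0.25. Cdc25a stood slightly above it for the S phase sum with miR-294 (0.28). Ccnd3 correlated with the summed G2 and mitosis genes at 0.57 with let-7, but at -0.11 in mock and -0.05 with miR-294, and with the later cyclins and Cdk1 at 0.55, 0.05 and 0.24. Among 6659 genes counted in at least 50% of the cells of the 3 Dgcr8-/- conditions, those most like Ccne2 by the mean of the 3 correlations were Slbp (0.41), which binds histone mRNA in S phase, Rbbp4 (0.40), a histone-binding protein, and Rrm2 (0.39). Those most like Cdk4 were Ftl1 (0.45), a ferritin subunit, Mif (0.44), a cytokine, and Gpi1 (0.38), a glycolytic enzyme. Those most like Ccnd1 were Gpx1 (0.39), Oaz1 (0.38) and Prdx2 (0.38). For Cdk6 they were the predicted transcripts Gm37985 (0.39) and Gm29055 (0.38) and the histone methyltransferase Nsd1 (0.38). Likeness was weaker for Ccnd3 (Csnk1e, 0.28) and Cdk2 (Smurf2, 0.28), and Ccnd2, Ccne1 and Cdc25a were counted in too few cells to be ranked.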

How the data were processed

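The authors deposited 1 table per sequencing run, with expected counts and FPKM per gene from RSEM 1.2.19 on Gencode M4 (GRCm38), made from unstranded Nextera XT libraries without molecular identifiers. The 232 runs come from 182 cells. For each cell, the expected counts of its runs were added and then rounded to whole numbers. FPKM values as deposited by the authors were averaged over runs, weighted by their total counts, and used for levels per length. Counts were divided by median-ratio size factors over 862 genes counted in every cell (the normalization of DESeq). Genes were kept at a mean count of at least 5. A gene with no count in 1 condition was set against a floor of 3 counts over that condition. Runs and cells were compared by a chi-square per gene over genes with at least 20 counts, and pairs under 10 were counted once with their mean. Intervals are exact 95% Poisson or Clopper-Pearson intervals and cover counting error only. Gene names came from a gene name table (41674 of 42493 IDs matched). Python 3.11.15, pandas 2.3.3, scipy 1.17.1, matplotlib 3.10.9 and, for TMM factors, edgeR 4.0.16 in R 4.3.3 were used. The scripts were tested on simulated data with known folds. The members and the gene lists were chosen with earlier results of these data known. Named are all 9 members, Dgcr8, up to 4 genes per list furthest past 2-fold, and the 3 genes most like each member. The study kept cells on depth, diversity and lower mimic targets. Doublets were not called, since the study checked wells by microscope. Alternatives were other scalings, units, summaries, folds and sets of cells. Seed matches were sought in the 3′ UTR of 1 transcript per gene of Gencode M21, where 98.83% of these UTRs follow a stop codon.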

Additional observations from a re-analysis of the deposited data

How the results depend on the processing

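Each condition is 1 sample, so no spread between replicates was available, and no test or replicate could be left out. No paired analysis was possible because cells are numbered within their own condition with no pairing between conditions, and no test was made. The number of the 9 genes past 2-fold with miR-294 was 2 as reported. It was 1 with library totals, 1 with FPKM, 1 after subtracting the median of all genes and 4 at 1.5-fold. All of these were lower, where 15.7%, 15.5%, 14.7% and 35.1% of all genes were lower. By the median over cells, Ccne1 and Cdc25a were past 2-fold higher with miR-294 and only Ccnd1 lower, against 14.5% and 16.1% of all genes. With let-7 the number was 3 as reported. By the median over cells, where only 6 of the genes have a value, it was 1 (Ccne2, lower, as were 17.5% of all genes). Without the highest cell of each condition it was 1 (Cdc25a, lower, as were 11.5% of all genes). For mock over WT the number stayed within 1.5 times of 4 under the alternatives run, but the genes changed. By the median over cells, Ccnd1, Cdk2 and Cdk6 were higher and Ccne1 and Cdc25a lower, against 26.6% and 16.3% of all genes. Library totals, TMM factors and FPKM each added Ccne1 as lower, where 12.7%, 12.2% and 12.2% of all genes were. Without the highest cells Ccnd3 and Ccne2 were higher in addition to the 4, where 40.2% of all genes were higher. The cause of these shifts was not tested. None of the 9 genes past 2-fold changed sign under any alternative. Cdk6 with let-7 crossed 2-fold under 6 alternatives, within a narrow range (0.88 to 1.15), and Ccne1 for mock over WT had the widest range (-5.07 to -0.53). Outside the 9, Cdkn1c changed sign without the highest cells (2.08 with let-7, 0.76 with miR-294 and -2.44 for mock over WT). By the median, Ccne1 with miR-294 was 2.61 where the mean gave -0.16. Leaving out both mismatched cells moved none of the 9 genes across the fold. These alternatives, those without the near-identical pairs, those for list genes without the highest cells, and the Cdk6 to Cdk4 ratio were chosen after seeing the data. Ccnd2, the E cyclins and Cdc25a are sparse, and the part of depth in their shares was not tested. Thinning or a minimum of 5 counts left the number of genes counted in at least 50% of Dgcr8-/- cells at 5, against 6.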
